A study of Mus musculus with 131 samples.

Results

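Primed regions of adult mouse hepatocytes were taken as chromatin that carried H3K4me1 without H3K27ac. They were chosen by peak overlap: a member was a peak of the H3K4me1 ChIP-seq library of wild type (WT) hepatocytes that shared no base with any peak of the WT H3K27ac library. The rule found 38103 members among 70466 WT H3K4me1 regions, or 54.1%. The other 32363 regions touched an H3K27ac peak and are called active regions here. The absence of H3K27ac in WT and the presence of H3K4me1 are therefore what selected the members and are not results.

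H3K4me1 is a histone mark laid down at enhancers before and during their use, and H3K27ac is added when an enhancer is active. A region with the first mark and not the second is usually called primed or poised. DNA methylation at enhancers is removed by the TET enzymes, which oxidize 5-methylcytosine to 5-hydroxymethylcytosine (5hmC), an intermediate that is then diluted or repaired to unmodified cytosine. In hepatocytes, enhancers are bound by liver factors such as HNF6 (the product of Onecut1), FOXA proteins, HNF4A and CEBP proteins.

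All samples were of the C57Bl strain. Whole-genome bisulfite sequencing (WGBS) gave 1 library each of newborn (1 week) WT hepatocytes, adult (15 weeks) WT hepatocytes and adult Tet2/Tet3 double knockout (DKO) hepatocytes of 15 weeks. DKO mice carried floxed Tet2 and Tet3 and received an adeno-associated virus (AAV8) with Cre under the hepatocyte-specific Tbg promoter at 1 day of age, so other liver cells kept both genes. H3K4me1 and H3K27ac were measured in 1 library each of adult WT (no virus) and DKO hepatocytes, and 5hmC in 1 library of WT hepatocytes of 20 days. Chromatin accessibility (ATAC-Seq) and HNF6 binding had 2 WT and 2 DKO libraries each, which the labels call liver and give no age. The study's text places the ATAC-Seq in adult (15 weeks) hepatocytes, with DKO mice injected at 1 day, and does not give the age or the cells of the HNF6 libraries. Reduced representation bisulfite sequencing (RRBS) and RNA-seq of hepatocytes had 2 or 3 mice per group in use, with 1 newborn library in RNA-seq. Adult controls there were WT mice of 15 weeks that had received the same virus at 1 day or 3 weeks, beside DKO mice of 15 weeks injected at 1 day or 3 weeks and uninjected WT mice of 3 weeks. RNA-seq also had uninjected WT mice of 15 weeks. RRBS further held hepatocytes whose insulin receptor gene was deleted after birth, with no age in the labels, and 1 WT sample each of fat (25 weeks) and neutrophils (36 weeks).

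The ChIP-seq and 5hmC libraries held 25209919 to 33777718 tags, the ATAC-Seq libraries 54164080 to 90249422 and the HNF6 libraries 13437081 to 31259057. The number of HNF6 peaks called ran from 4387 and 9355 in WT to 9305 and 34665 in DKO, and the second DKO library, with the fewest tags, had the most peaks. Whole-gene expression in FPKM, a unit scaled for transcript length and library depth, did not show the deletion. Tet2 was at 2.13, 1.63 and 0.890 FPKM in the 3 controls injected at 1 day and at 4.08, 2.82 and 3.16 in the 3 DKO mice, and Tet3 at 2.11, 2.55 and 1.68 against 2.78, 1.74 and 2.65. Tet2 was higher in DKO (log2 difference of FPKM + 1 of 0.79 ± 0.20 (SE), adjusted p = 0.0171 by limma), whereas Tet3 did not pass the test (adjusted p = 0.61). These values do not check the labels, since reads of undeleted exons count in them. The summed FPKM of 8 hepatocyte markers was 12000 to 16030 in controls and 11150 to 14350 in DKO, while that of 5 Kupffer cell and leukocyte markers was 3.64 to 6.38 and 1.73 to 3.5, and their part in the results was not tested. Alb, the albumin gene, is listed at 0 in all 18 libraries and Serpina1c at 0 in every control and DKO library, so the hepatocyte sum rests on 6 genes. A 0 in this FPKM table can be a failed estimate, and shares of genes under 1 FPKM may include such entries.

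A few sequences show what kinds of DNA the rule collected. Capitals mark CpG, the dinucleotide that carries methylation, and each sequence is 1 tile of 200 bp (mm9, plus strand) from a named member. The first set are the most demethylated tiles of members with the largest fall in methylation from newborn to adult. They are poor in CpG, with 1 or 2 per tile. They lie at chr5:4883201-4883400 in an intron of Cdk14, chr2:134484601-134484800 between genes near Tmx4, chr14:28430801-28431000 between genes near Erc2, and chr1:157190001-157190200 in an intron of Xpr1.
Cdk14: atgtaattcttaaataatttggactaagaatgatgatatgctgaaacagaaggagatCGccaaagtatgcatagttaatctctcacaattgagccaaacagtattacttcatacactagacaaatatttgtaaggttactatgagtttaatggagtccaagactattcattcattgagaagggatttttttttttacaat
Tmx4: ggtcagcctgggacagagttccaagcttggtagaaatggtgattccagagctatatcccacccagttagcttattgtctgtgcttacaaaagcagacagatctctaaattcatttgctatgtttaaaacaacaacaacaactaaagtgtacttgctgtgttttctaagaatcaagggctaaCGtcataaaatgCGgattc
Erc2: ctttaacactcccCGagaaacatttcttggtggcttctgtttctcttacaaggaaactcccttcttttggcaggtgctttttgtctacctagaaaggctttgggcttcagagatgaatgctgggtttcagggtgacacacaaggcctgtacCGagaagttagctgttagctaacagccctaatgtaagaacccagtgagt
Xpr1: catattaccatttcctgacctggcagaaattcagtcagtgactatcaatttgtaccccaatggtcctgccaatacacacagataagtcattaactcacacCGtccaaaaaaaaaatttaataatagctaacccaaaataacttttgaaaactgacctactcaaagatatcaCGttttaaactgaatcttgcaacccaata

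The second set are tiles of members that were accessible in all 4 ATAC-Seq libraries with the highest scores, and they are rich in CpG. They hold 22 and 15 CpG and lie at chr4:28740001-28740200 in Epha7, an ephrin receptor gene, and at chr8:63111201-63111400 in the promoter of Mfap3l.
Epha7: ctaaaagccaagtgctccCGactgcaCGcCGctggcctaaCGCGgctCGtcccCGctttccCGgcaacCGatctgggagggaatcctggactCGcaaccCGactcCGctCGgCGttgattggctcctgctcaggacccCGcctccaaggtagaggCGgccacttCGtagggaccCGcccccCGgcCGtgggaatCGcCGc
Mfap3l: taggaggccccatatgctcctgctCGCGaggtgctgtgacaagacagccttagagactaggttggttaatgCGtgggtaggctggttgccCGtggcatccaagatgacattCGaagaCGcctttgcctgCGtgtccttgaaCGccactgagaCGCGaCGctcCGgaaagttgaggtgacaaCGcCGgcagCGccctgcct

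The third kind, shown by 1 tile with 8 CpG at chr8:72611801-72612000 in Hapln4, belongs to the few members that gained methylation after birth.
Hapln4: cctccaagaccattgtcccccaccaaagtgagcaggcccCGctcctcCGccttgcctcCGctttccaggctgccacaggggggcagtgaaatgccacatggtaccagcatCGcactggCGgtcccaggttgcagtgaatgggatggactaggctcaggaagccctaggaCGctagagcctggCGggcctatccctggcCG

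The tiles of the first set went from 83.3% to 92.0% methylated in the newborn to between 0% and 4.44% in the adult, and were at 68.0% to 86.7% in DKO. The Epha7 tile was at 0.261%, 0.245% and 0.815% and the Mfap3l tile at 1.55%, 0.570% and 1.67% in newborn, adult and DKO. The Hapln4 tile moved the other way, from 7.33% to 68.3%, and was at 49.3% in DKO. No replicate exists for any WGBS value, and the number of reads behind a tile is unknown.

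Members were short and distal. Their median width was 807 bp (quartiles 501 and 1315), against 2041 bp in active regions, and together they covered 41.3 Mb. The median distance to the nearest start of a coding gene was 16587 bp, against 6527 bp in active regions. Of the members, 8.63% lay in promoters (1 kb upstream to 100 bp downstream of a start), 57.9% in gene bodies and 33.5% between genes. In active regions these shares were 13.3%, 62.2% and 24.5%. The H3K4me1 score of HOMER's peak caller, which chose the members, had a median of 25 (quartiles 21 and 31), and the nearest WT H3K27ac peak was a median of 11307 bp away.

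The limit between members and active regions was 1 base. The members in Dennd1a and Itpr2 ended where a WT H3K27ac peak began, with 0 bp between them, and had H3K4me1 scores of 29 and 22. Regions at Rab5b, Iars and Lrig2 overlapped such a peak by 1 bp and were left out, with scores of 30, 42 and 35. Adult methylation at these members was 9.34% and 55.6% and at the 3 regions left out was 61.6%, 72.7% and 48.4%, so the levels on the sides of the limit ran across each other.

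Methylation of members was intermediate in the adult and higher in the newborn and in DKO. Among 36234 autosomal members with a WGBS value (a median of 3 tiles each), the mean level was 59.6% ± 28.8 (SD over regions) in the newborn, 50.6% ± 26.7 in the adult and 63.0% ± 26.5 in DKO. The other 1090 members on the sex chromosomes and 779 without a tile have no value. Active regions had close to the same means, 59.9%, 50.0% and 63.6%, with smaller spreads over regions of 21.8, 19.2 and 19.9. The members spread over the full scale: in the adult 17.2% of them were under 20% methylated and 16.7% at 80% or more. In the newborn 31.7% and in DKO 35.4% were at 80% or more. With 1 library a group, the differences between the libraries have no replicate check here.

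**Figure D1:**
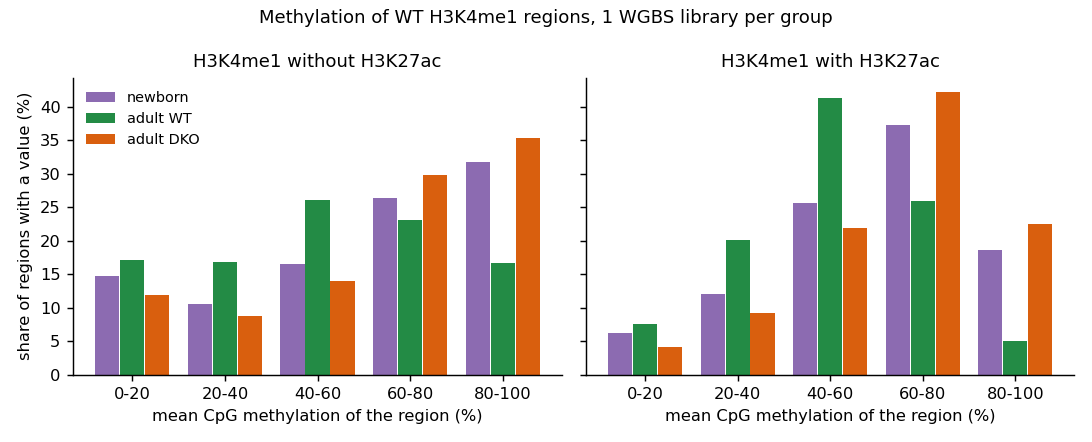
Share of regions (percent, vertical axis) in 5 bins of WGBS methylation (percent, horizontal axis) for newborn, adult and DKO hepatocytes, in members and in active regions. In members the top bin holds 31.7% in the newborn, 16.7% in the adult and 35.4% in DKO.

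A fall of at least 35 percentage points from newborn to adult was seen in 1971 members (5.44%), where the share over all WT H3K4me1 regions was 4.23% and that of active regions 2.85%. Over all autosomal tiles of the genome 1.63% fell that far. A rise of the same size was seen in 26 members, 0.0718%, where the share over all H3K4me1 regions was 0.047%. In DKO 2592 members (7.15%) stood at least 35 points above the adult, against 5.7% over all H3K4me1 regions, 4.06% of active regions and 1.98% of all tiles. Of the members that fell, 1523 (77.3%) were among these, as were 712 (78.5%) of 907 active regions that fell. Both differences subtract the same single adult library, so a low adult value raises both. This overlap is thus in part set by the shared library and is not separate evidence.

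The order of members and active regions depended on the stretch measured. In windows of 500 bp either side of the centre, 5.01% of members fell by 35 points (95% Wilson interval 4.80 to 5.24) against 7.84% of active regions (7.55 to 8.14). Among regions of 600 to 2000 bp, compared because active regions are longer, the shares measured over whole regions were 5.55% and 3.86%. Tile by tile, 10.1% of the tiles in members fell against 13.3% of the tiles in active regions. Members are thus not shown to fall more or less often than active regions, and intervals cover counting error only.

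Another 1069 members were at least 35 points higher in DKO than in the adult without such a fall after birth. Their means were 53.5% in the newborn, 29.9% in the adult and 71.8% in DKO, and the place of DKO above both WT ages follows from how they were picked. Over all members a DKO level at least 35 points above the newborn was seen in 241 (0.665%).

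Members were split into 4 classes by methylation. Those that fell by 35 points (1971) had means of 77.0%, 29.9% and 75.0% in newborn, adult and DKO. Constitutively low members, under 20% at both WT ages (4868, 13.4% of those with a value), were at 7.27%, 8.08% and 11.8%. Constitutively high members, at 80% or more at both ages (5578, 15.4%), were at 91.0%, 88.4% and 88.3%. The remaining 23817 members (65.7%) were at 61.5%, 52.2% and 66.5%. The newborn and adult levels follow from how the classes were set, and DKO was not used to set them. All are given as a description.

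The low members lay nearest to promoters. Of these, 31.7% lay in promoters, their median distance to a start was 856 bp, and they held a median of 4.50 CpG per 100 bp at 56.6% GC. Members that fell lay in promoters in 1.83% of cases and 37560 bp from a start, and held 0.619 CpG per 100 bp at 41.8% GC. High members lay within gene bodies in 81.6% of cases and were narrow, with a median width of 501 bp. They were also close to active chromatin, with a median of 4120 bp to the nearest WT H3K27ac peak, against 39450 bp for low members and 16872 bp for those that fell.

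The plot of the 4 classes sets their other readouts side by side. A DKO H3K4me1 peak was found on 83.2% of low members, 60.5% of those that fell and 51.5% of high members. A 5hmC peak was found on 16.1% of low members, 22.7% of those that fell, 18.8% of high members and 26.3% of the rest. A DKO H3K27ac peak was least frequent on members that fell, 10.1% (8.84 to 11.5), against 19.4% of low, 13.3% of high and 23.8% of the remaining members. All these shares are of whole regions, and the part of width in them was not tested.

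**Figure D2:**
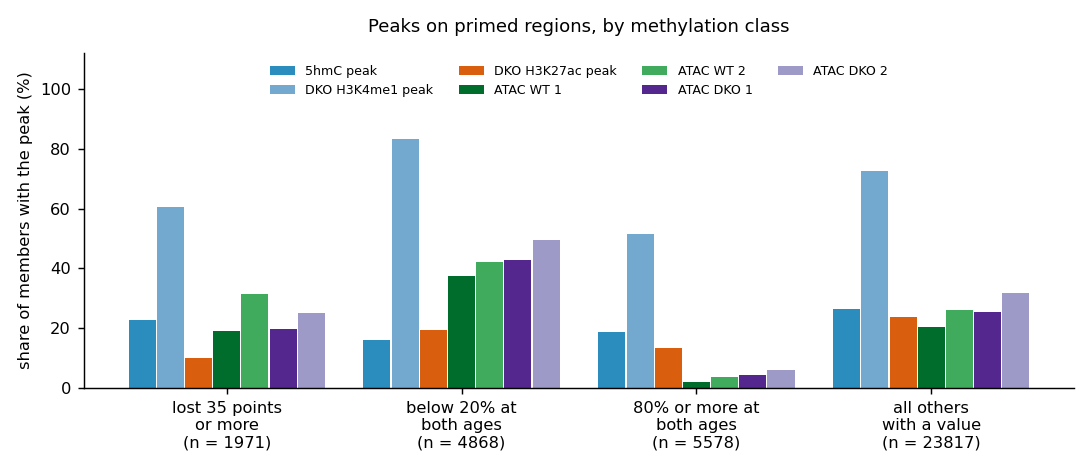
Share of members (percent, vertical axis) with each readout in the 4 methylation classes, as 1 bar per peak library. Low members lead in ATAC-Seq (37.4% to 49.5% over the 4 libraries) and DKO H3K4me1 (83.2%), high members are lowest in ATAC-Seq (1.94% to 6.11%), and members that fell are lowest in DKO H3K27ac (10.1%).

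Within a region methylation was uneven. In members of 3 to 6 tiles (18792), the median range between the lowest and the highest adult tile was 60.4 percentage points. In 851 such members that fell, the range widened from 26 points in the newborn to 71.2 in the adult, and 92.0% had an adult tile under 20% where 6.93% had a newborn one. The class was picked for a fall between these same 2 libraries, so these shifts follow at least in part from the pick. The adult ranges of low and high members, which the limits of these classes confine, were 14.2 and 15.4 points. In active regions the adult range was 76.8 points.

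The members with the largest falls make this concrete. The region in Cdk14, a cyclin-dependent kinase gene, at chr5:4882711-4883686 went from 90.2% to 12.1% and was at 81.4% in DKO. The region in Xpr1, which encodes a phosphate exporter, at chr1:157189736-157191264 went from 92.1% to 22.0% and stood at 83.8% in DKO. The regions near Tmx4 (chr2:134484070-134485269) and Erc2 (chr14:28430336-28431159) went from 81.0% to 3.91% and from 79.3% to 9.01%, with 70.4% and 75.1% in DKO. The largest fall was in an intron of 1700061I17Rik at chr3:116774635-116775267, from 86.3% to 3.84%, with 81.0% in DKO. All 5 kept an H3K4me1 peak in DKO, with scores of 20 to 28. They differed in accessibility, since the Cdk14 region had ATAC-Seq peaks in all 4 libraries (scores 22.0 and 46.5 in WT, 77.0 and 70.5 in DKO) and the regions near Tmx4, Erc2 and in Xpr1 had none.

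The largest rises were in Hapln4 (chr8:72611760-72612385, an exon, 4.61% to 54.1%, 43.2% in DKO), in the promoter of Shroom3 (chr5:93237599-93238412, 16.8% to 59.5%, 54.7% in DKO) and near Rassf3 (chr10:120958209-120958709, 12.5% to 52.5%, 63.6% in DKO). All 3 were higher than the newborn in DKO too. The Shroom3 region carried ATAC-Seq peaks in both DKO libraries, scores 42.5 and 53.0, and in neither WT library.

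RRBS, which reads CpG-rich fragments in single mice, covered 6697 members with 28785 tiles of 100 bp valued in all 12 hepatocyte columns used. Their mean was 11.5%, 11.7% and 11.5% in the 3 control mice injected at 1 day, 11.6%, 11.6% and 11.8% in the 3 controls injected at 3 weeks, and 14.8% and 14.9% in the 2 DKO mice injected at 1 day. The DKO and control mice did not overlap, and the difference of 3.29 points gave p = 0.2 in a two-sided exact permutation test, the smallest p that 2 against 3 mice allow. DKO mice injected at 3 weeks lay between, at 13.1% and 13.2%. Low members held 20090 of these tiles, at a mean of 3.34% ± 0.0298 (SD, n = 3) in the controls injected at 1 day and 4.10% ± 0.0775 (SD, n = 2) in DKO.

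Only 111 tiles in 67 members that fell in WGBS were covered, and there the mice spread widely. WT mice of 3 weeks were at 59.0% and 59.2%, and adult controls injected at 1 day at 39.1%, 41.8% and 37.6%. DKO mice injected at 1 day were at 76.4% and 80.2%, above every other group. DKO mice injected at 3 weeks, at 60.4% and 59.7%, were near the uninjected mice of 3 weeks. Neither DKO group overlapped its own controls, and the differences were 38.8 points for injection at 1 day and 18.7 points for injection at 3 weeks, each with p = 0.2 in the exact permutation test, the smallest possible. The class was set on the WGBS libraries, and RRBS was not used for it. The plot of single mice shows these sets of tiles.

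**Figure D3:**
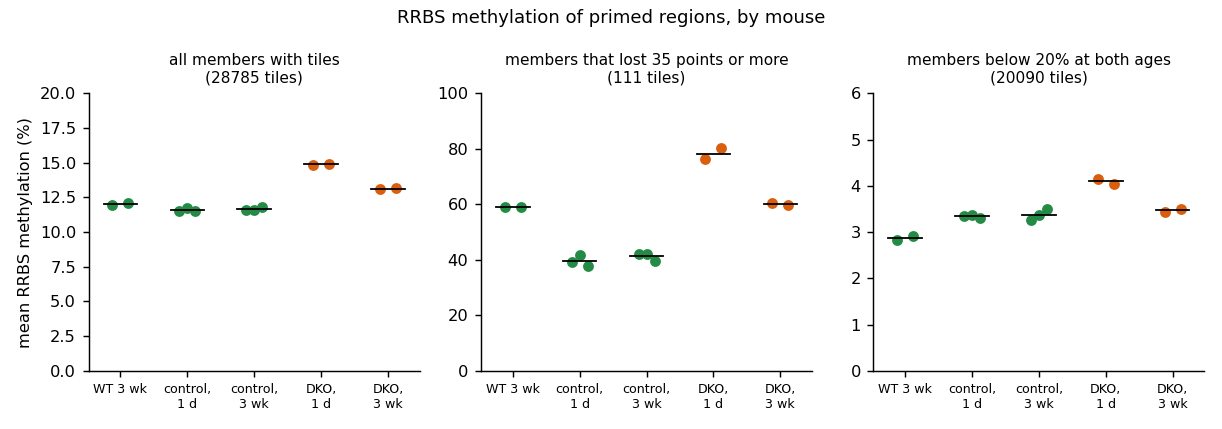
Mean RRBS methylation (percent, vertical axis) of each mouse, as 1 point, by group, with a line at each group's mean and a scale of its own in each panel, over tiles in all members, in members that fell and in low members; times below the controls and DKO are those of the injection. In the class that fell, controls injected at 1 day sit between 37.6% and 41.8% and DKO mice injected at 1 day at 76.4% and 80.2%.

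On 73 of those tiles, in 51 members, values also exist for hepatocytes in which the insulin receptor gene had been deleted after birth, for fat and for neutrophils. The 2 insulin receptor knockout mice were at 52.5% and 58.9%, where the controls injected at 1 day were at 39.8%, 43.7% and 39.0%. Fat was at 64.5% and neutrophils at 86.3%, in 1 sample each. Members differed from active regions in RRBS in all 6 control mice, with means of 11.6% and 22.5% and a difference of -10.8 ± 0.241 percentage points (SD, n = 6), p = 0.03125 in a two-sided exact sign permutation test, the smallest possible with 6 mice. This p-value covers repeat readings of the same tiles in 6 mice, not the spread between regions. Low members held 20090 of the 28785 member tiles, and adult WGBS means were 50.6% in members and 50.0% in active regions. The gap thus concerns only the tiles that RRBS covers.

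A 5hmC peak lay on 8714 members, 22.9% (22.4 to 23.3), where 32.9% of all WT H3K4me1 regions and 44.6% of active regions carried one. Longer regions meet more peaks, so the share was also counted in windows of 500 bp either side of the centre, where it was 22.4% in members and 28.2% in active regions. Per covered Mb the order turned, with 211 members with 5hmC per Mb of members and 143 active regions with 5hmC per Mb of active regions. Each region counts once there, however many peaks it holds, so this measure favours short regions and is not a density of peaks. Over whole regions, members with intermediate methylation carried it most often: 17.3% of those under 20% methylated in the adult, 23.3% from 20% to 40%, 27.7% from 40% to 60%, 27.2% from 60% to 80% and 18.9% above. Width differed between members by methylation, and its part in this order was not tested. The highest 5hmC scores were near Pdcd6ip (91, chr9:113055418-113056765), in Tap1, which encodes a peptide transporter of antigen presentation (90, chr17:34330868-34332553), and in Map3k5 (84, chr10:19688307-19689118). Adult methylation there was 43.8%, 72.4% and 79.5%.

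ATAC-Seq peaks lay on 19.2% and 25.0% of members in the 2 WT libraries and on 24.2% and 29.7% in the 2 DKO libraries. The genotypes overlapped, and the difference of means, 4.84 percentage points, gave p = 0.667 in a two-sided exact permutation test of 2 against 2 libraries, whose smallest p is 0.3333. The libraries also differed in the number of peaks called, from 47639 to 65515. With the 47639 best peaks of each library the shares were 19.2%, 20.8%, 22.5% and 20.4% and the difference 1.45 points. Active regions carried a peak more often in every library, 41.3% and 42.3% in WT and 39.7% and 47.1% in DKO. Active regions are longer, and per Mb of region covered the order turned, with 177, 230, 223 and 274 regions with a peak in members against 132, 135, 127 and 151 in active regions. As each region counts once there, this measure favours short regions and is not a density of peaks. In windows of 500 bp either side of the centre active regions were higher in all 4 libraries but the gap smaller, with 27.1%, 28.4%, 26.3% and 31.2% against 19.4%, 25.3%, 24.5% and 29.8% in members. The plot of shares by library shows the genotypes interleaved in members.

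**Figure D4:**
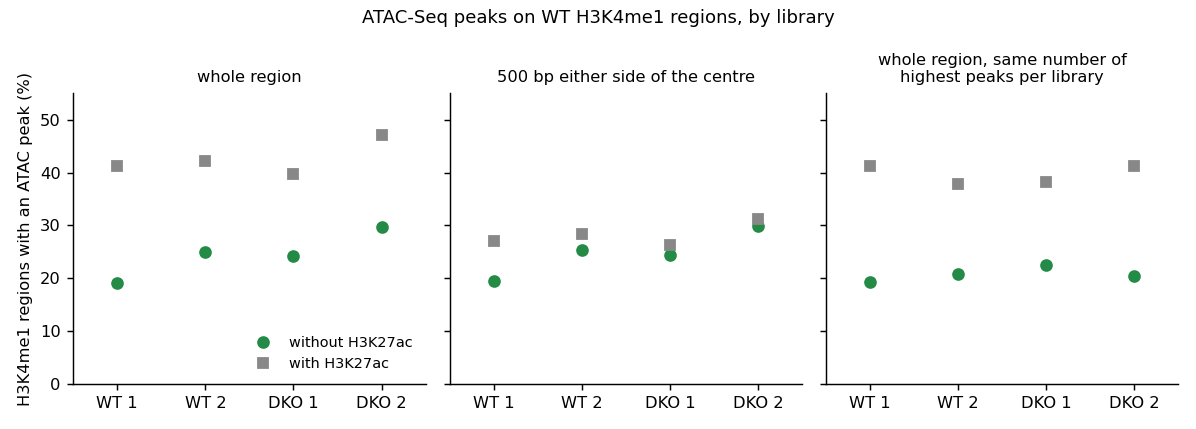
Share of regions (percent, vertical axis) with an ATAC-Seq peak in each of the 2 WT and 2 DKO libraries, for members (green circles, without H3K27ac) and active regions (grey squares), in whole regions, in windows of 500 bp either side of the centre and with the same number of peaks per library. Members run from 19.2% to 29.7% in whole regions and from 19.2% to 22.5% with equal numbers of peaks.

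Peaks were absent from all 4 libraries on 24093 members (63.2%) and present in all 4 on 4801 (12.6%). A peak in both WT and neither DKO library was found on 350 members, 0.919%, where the share over all WT H3K4me1 regions was 1.41%. A peak in neither WT and both DKO libraries was found on 941 members, 2.47%, against 2.15%. With equal numbers of peaks these counts were 400 and 597.

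The 350 members open in WT only changed more in methylation than the 941 open in DKO only. The first were at 65.3%, 42.4% and 68.1% in newborn, adult and DKO, and 22.3% of them fell by 35 points. The second were at 51.1%, 43.4% and 54.9%, and 4.65% fell. A DKO H3K4me1 peak lay on 50.0% of the first and on 92.7% of the second. Among the 1971 members that fell, 77 (3.91%) were open in both WT and neither DKO library and 41 (2.08%) the reverse, which with equal numbers of peaks became 93 (4.72%) and 19 (0.964%).

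High WT scores among members open in WT only were found in the promoters of Zw10 (193 and 142, chr9:48862889-48863564) and Acad9 (95.0 and 66.0, chr3:35977930-35979977), in an intron of D16Ertd472e (46.0 and 104.5, chr16:78548923-78550404) and in an exon of Tbc1d2 (91.0 and 55.5, chr4:46618370-46619183). The D16Ertd472e region was at 90.5% in the newborn, 64.3% in the adult and 83.2% in DKO, and carried 5hmC. The Zw10 region was at 32.8%, 29.2% and 24.9%. Its peak in the first WT library (chr9:48863551-48863681) lay mostly beyond the end of the region, so these levels are not those of the peak. DKO peaks that lie outside a region were not counted. The peaks of Acad9 (chr3:35978937-35979067) and Tbc1d2 (chr4:46618519-46618649), each 131 bp (mm9, plus strand, CpG in capitals), are printed because their accessibility was seen in WT libraries and not in DKO. Neither holds a match to the motifs searched for here, which says only that those letters are not in these windows.
Acad9: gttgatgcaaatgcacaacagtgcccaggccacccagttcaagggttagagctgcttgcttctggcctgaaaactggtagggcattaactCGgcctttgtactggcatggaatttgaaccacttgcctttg
Tbc1d2: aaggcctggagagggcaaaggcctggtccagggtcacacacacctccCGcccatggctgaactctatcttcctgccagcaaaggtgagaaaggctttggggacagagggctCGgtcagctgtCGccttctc

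Members open in all 4 libraries with the highest scores lay in Ccna2, the cyclin A2 gene (chr3:36469918-36471085, WT 253.5 and 360, DKO 609 and 514.5), in Epha7 (chr4:28739452-28743106, WT 259.5 and 356, DKO 632.5 and 468.5) and at the Mfap3l promoter (chr8:63110726-63111478, WT 259 and 289, DKO 531 in the first library). Scores depend on the library and are not compared between genotypes. All 3 regions were low in methylation, at 3.71%, 3.15% and 9.95% in the adult.

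HNF6 peaks lay on 2.66% and 4.84% of members in WT and on 5.02% and 11.9% in DKO. The groups did not overlap and the difference of 4.72 points gave p = 0.3333 in the exact permutation test, the smallest possible. The library with the most peaks, the second DKO one, had the highest share, and the library with the fewest, the first WT one, had the lowest. With the 4387 best peaks of each library the shares were 2.66%, 2.56%, 2.45% and 2.55%, and the difference turned to -0.108 points. Active regions carried HNF6 on 7.05% and 11.7% in WT and on 12.3% and 23.8% in DKO. In windows of 500 bp either side of the centre the gap was smaller, with 3.25%, 5.47%, 5.93% and 12.5% against 2.40%, 4.41%, 4.55% and 11.1% in members. Per Mb of region covered members were higher in all 4 libraries, from 24.5 to 110 regions with a peak against 22.6 to 76.2, a measure that counts each region once and so favours short ones.

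Motif matches were counted on both strands in the central 200 bp of each region. ATTGAT, a core of the HNF6 motif, was found in 10.4% of members, 7.22% of active regions and 8.94% of all WT H3K4me1 regions. TTGCNNAA, a CEBP motif, was in 10.5%, 9.24% and 9.91%, TGTTTAC, a FOXA motif, in 4.18%, 3.43% and 3.84%, and CAAAGTCCA, an HNF4A motif, in 0.869%, 0.590% and 0.741%. Members that fell held ATTGAT in 15.6% (14.0 to 17.2) and TTGCNNAA in 15.8% (14.2 to 17.5), whereas low members held them in 4.99% and 6.74%. The whole regions of the 2 classes differed in GC content, 41.8% and 56.6%. GC content of the windows was not measured, and its part in the result was not tested. A direct repeat bound by PPAR and RXR was in 0.123% of members and 0.068% of active regions. No motif contains another, and matches are a description and not binding sites.

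H3K27ac was found in DKO on 7798 members, 20.5% (20.1 to 20.9), where 49.2% of all WT H3K4me1 regions carried a DKO peak. The absence of WT H3K27ac chose the members, so the gap to the background is part of the choice. Of the active regions 82.9% carried a DKO H3K27ac peak and 5523 did not. With 1 library per genotype a gain or loss of a peak has no replicate check.

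Distance to WT H3K27ac moved with this share. A DKO H3K27ac peak lay on 43.0% of 3344 members within 1 kb of a WT H3K27ac peak, on 23.4% of 9293 at 1 to 5 kb, on 19.4% of 10752 at 5 to 20 kb and on 14.3% of 14714 farther away. Width moved with it as well, from 10.2% of members under 600 bp to 16.2%, 27.2% and 45% in the wider groups up to those of 2000 bp or more. The part of either in the result was not tested.

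**Figure D5:**
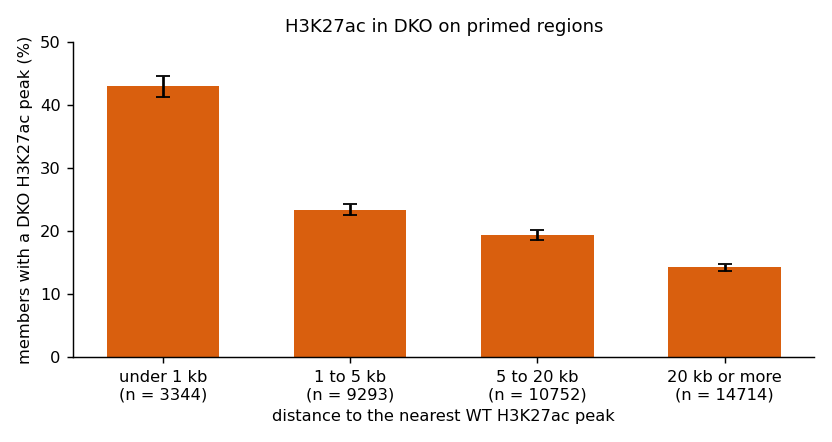
Share of members (percent, vertical axis) with a DKO H3K27ac peak by distance to the nearest WT H3K27ac peak (kb, horizontal axis), with 95% Wilson intervals. The share is 43.0% within 1 kb and 14.3% beyond 20 kb.

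Members with DKO H3K27ac were more often accessible and fell less often than those without. Methylation was 56.1%, 48.9% and 60.3% in newborn, adult and DKO with the mark and 60.5%, 51.1% and 63.7% without it. A fall of 35 points was seen in 2.64% of the first and 6.18% of the second. ATAC-Seq peaks lay on 32.9% and 35.5% of the first in WT and on 37.8% and 45.5% in DKO, against 15.6% and 22.3%, and 20.7% and 25.6%, of the second. 5hmC was found on 27.5% and 21.7%, but on 22.4% of both in windows of 500 bp either side of the centre. The ATAC-Seq shares and the falls are those of whole regions, and DKO H3K27ac was more frequent on wider members. The part of width in these differences was not tested.

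The highest DKO H3K27ac scores were in Psmd11, a proteasome subunit gene (139, chr11:80244402-80246004), near Dpy19l1 (87, chr9:24308804-24309571) and near Gnaq, a G protein gene (81, chr19:16205025-16206448). They were followed by a region in Heatr7b1 and Hjurp (80, chr1:90155621-90157682) and one in Mkrn2 (79, chr6:115552666-115553520). All 5 lay 8 to 2591 bp from a WT H3K27ac peak. ATAC-Seq peaks were found in 1 of them, the Heatr7b1 and Hjurp region, with scores of 199 and 132 in WT and 209.5 and 256 in DKO. Adult methylation was 41.7% near Dpy19l1, where the newborn had 83.9% and DKO 74.3%, and 47.9% to 67.6% in the other 4.

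H3K4me1 itself was found in DKO on 26743 members, 70.2% (69.7 to 70.6), where the share over all WT H3K4me1 regions was 79.4% and that of active regions 90.2%. The share followed the WT score, with 53.4%, 64.9%, 75.4% and 87.1% from the lowest to the highest of 4 equal groups of members by that score. A WT H3K4me1 peak chose all these regions, so an incomplete share in another library is part of the choice. It is not shown to be a loss, since neither library has a replicate. The DKO library held 77859 H3K4me1 peaks and the WT library 70466. The rise from adult to DKO methylation was 12.2 points in members that kept the mark and 12.5 points in those that had no DKO peak.

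Members lay in or near many genes. Of 22238 annotated coding genes, 9660 (43.4%) held at least 1 member in their body or the 1 kb upstream, 10447 (47.0%) held an active region and 4037 (18.2%) held members but no active region. Apart from the predicted gene model Gm20388, the genes with the most members were Fgfr2, a fibroblast growth factor receptor gene (63 members and 55 active regions), Arfip1 (56 and 21), Zbtb20 (47 and 43) and Dpyd, which encodes the enzyme that breaks down pyrimidines (45 and 9).

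The gene lists differed in which kind of region they held. Of 7 annotated genes of the fetal liver list, 6 held a member, 5 of them without an active region, and 1 held an active region. These were Afp (2 members), which encodes the fetal serum protein alpha-fetoprotein, Igf2 (2), a fetal growth factor, Gpc3 (1), Igf2bp1 (1), Lin28b (4), an inhibitor of let-7 microRNAs, and Hmga2 (2 members and 1 active region). None of the 6 held a member that fell, but only 793 of all 22238 coding genes did, so this does not set the list apart. Of 20 liver transcription factors, 8 held a member and 17 an active region, and none held members alone. Of 20 hepatocyte metabolism genes 8 held a member and 18 an active region, and Cyp2b10, a cytochrome P450 gene, had 4 members and no active region. In the insulin and growth hormone signalling list 7 of 10 genes held a member and all 10 an active region, with 20 members and 17 active regions in Ghr, the growth hormone receptor gene. Of 8 TET and DNMT enzymes, 7 held a member, Tet1 with 3 and no active region, Tet2 with 4 and Tet3 with 4. Of markers of other liver cells, 0 of 5 annotated Kupffer cell and leukocyte, 3 of 5 endothelial, 2 of 5 stellate and 1 of 4 cholangiocyte genes held a member, against 2 of 8 hepatocyte markers.

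Genes that held members and no active region were mostly under 1 FPKM. In the 3 WT libraries of 15 weeks, 14.8% to 15.6% of the 3704 such genes in the table reached 1 FPKM, with a median of 0.0147 to 0.0176 FPKM. Of 9776 genes with an active region 78.5% to 80.04% did, with medians of 4.57 to 5.01 FPKM, and of the genes with neither 7.72% to 7.95%. In the single newborn library 22.3% of the genes with members only reached 1 FPKM. Afp was at 8898 FPKM there and at 0.839 to 0.925 in the adult WT libraries, Igf2 at 1022 and at 0.0455 to 0.0877, and Lin28b at 0.344 and listed at 0.

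In DKO mice injected at 1 day against the injected controls, 5406 genes that held a member were tested, of which 219 (4.05%) were higher and 835 (15.4%) lower at an adjusted p under 0.05 by limma. Over all 11039 genes tested the shares were 4.24% and 15.8%, so the genes that held a member stood at the background. The median difference of all genes was -0.11 on the log2(FPKM + 1) scale. With each library centred on its median the split was 699 higher and 630 lower among genes that held a member and 1440 and 1320 over all genes. Leaving out the third control left 447 calls in place of 1054, leaving out the first DKO mouse 128 higher and 365 lower, and leaving out the third DKO mouse 667 calls in all. Of the 938 tested genes with members and no active region, 71 (7.57%) were higher and 83 (8.85%) lower, and with centring 163 and 59. The split was similar in the 700 tested genes with neither kind of region. Of these, 50 (7.14%) were higher and 67 (9.57%) lower, and with centring 110 and 49, so it was not particular to genes with members.

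The lists are read against the 4.24% higher and 15.8% lower over all genes tested. In the liver transcription factor list 6 of 20 tested were lower, among them Cebpb, Hnf4a and Nr1i3, and 0 higher. Onecut1, the HNF6 gene, was at 3.73, 9.76 and 0.714 FPKM in controls and 46.2, 14.0 and 15.6 in DKO. Its log2 difference of 2.36 did not pass (adjusted p = 0.081 by limma), and its part in the HNF6 peaks was not tested. In the metabolism list 5 of 20 were lower (Cyp1a2, Cyp2e1, Cyp7b1, Cyp8b1 and Glul) and 0 higher. The signalling list had 2 of 10 lower, Igf1 and Stat5b, and 0 higher. Of 5 fetal liver genes tested, H19, which is not in the coding annotation used for regions, was higher. Igf2 had a log2 difference of 0.37 and did not pass (adjusted p = 0.0989), and Afp was at -0.23 (adjusted p = 0.404). Ghr, with 20 members, was at 151, 140 and 167 FPKM in controls and 131, 120 and 131 in DKO, and did not pass (adjusted p = 0.277). Of TET and DNMT enzymes 1 of 6 tested, Tet2, was higher and 1, Dnmt3a, lower. Among the marker lists Cyp2e1, Hnf4a and the endothelial Stab2 were lower, and of 4 Kupffer cell and leukocyte, 3 stellate and 2 cholangiocyte genes tested 0 passed.

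In 43 tested genes a member that fell was held without any active region, and 4 of these were higher and 6 lower in DKO, 9.30% and 14.0% against 4.24% and 15.8% over all genes. Cyp2c37, a cytochrome P450 gene, fell most. It was at 174, 117 and 170 FPKM in the 3 controls and at 4.75, 5.43 and 2.75 in the 3 DKO mice, so the groups did not overlap (log2 difference -4.88 ± 0.39 (SE), adjusted p = 3.19e-06 by limma). The 2 DKO mice injected at 3 weeks were at 66.1 and 70.2. Neb, which encodes the muscle protein nebulin, was at 1.43, 2.14 and 1.18 against 0.416, 0.224 and 0.682 (-0.84 ± 0.14 (SE), adjusted p = 0.00105 by limma).

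Sult1e1, which encodes estrogen sulfotransferase, was at 0.0239, 0.0551 and 0.0296 FPKM in controls and at 1.86, 14.2 and 1.14 in DKO, so 1 DKO mouse was far above the other two (log2 difference 2.13 ± 0.48 (SE), adjusted p = 0.00882 by limma). Without that mouse the difference was 1.26. Sybu, which encodes syntabulin, was at 0.0652, 0.0601 and 0.0120 against 1.65, 1.81 and 1.11 (1.26 ± 0.32 (SE), adjusted p = 0.0155 by limma). It had been at 12.1 FPKM in the newborn library, and 1 of the 3 controls injected at 3 weeks, at 1.47, lay within the DKO range. Without the third control or the first DKO mouse Sybu no longer passed (adjusted p = 0.0617 and 0.0587). Mup10 was listed at 0 in all 3 controls and at 204, 225 and 145 FPKM in DKO, and Mup12 at 0 and at 181, 217 and 128. In the 3 controls injected at 3 weeks Mup10 was also listed at 0, but Mup12 was at 1411, 2603 and 548. Major urinary protein genes are near-identical copies, and how reads were shared among them makes both values uncertain. Their zeros may also be failed estimates, as for Alb.

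Changes in Traf3, Tcea1 and Axin1 were smaller. They had log2 differences of -0.34, -0.52 and -0.42, with adjusted p of 0.0368, 0.0196 and 0.0156 by limma. Traf3 lost the call when any 1 of the 6 mice was left out and with centring (adjusted p = 0.0867), Tcea1 without the third control, the first or the third DKO mouse, and Axin1 without the third control (adjusted p = 0.0699).

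Genes at the members named above showed no common direction. Tmx4, a thioredoxin-related membrane protein gene near the demethylated region, was at 5.04, 4.37 and 4.22 FPKM in controls and at 10.1, 9.78 and 7.20 in DKO (log2 difference 0.84, adjusted p = 0.00216 by limma). Rassf3 was at 14.9, 12.6 and 21.1 FPKM in controls and 5.17, 5.33 and 6.50 in DKO (-1.35, adjusted p = 0.00102 by limma), and held 1 member and 7 active regions, while its named region was between genes. Acad9, open in WT only, was lower (-0.54, adjusted p = 0.0168 by limma), as was Map3k5 (-0.63, adjusted p = 0.0335 by limma). Xpr1 was at -0.22 (adjusted p = 0.305) and Psmd11, with the highest DKO H3K27ac score, at -0.33 (adjusted p = 0.155), and neither passed. Cdk14 was under 0.1 FPKM in every adult library and was not tested.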

How the data were processed

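WGBS, RRBS, RNA-seq, ChIP-seq, 5hmC capture and ATAC-Seq files of hepatocytes or liver were used. The authors deposited WGBS methylation as a fraction per 200 bp tile and RRBS methylation as a fraction per 100 bp tile, printed here as percent. The study's methods keep an RRBS tile with at least 10 readings of its CpG, and the depth behind a single value is unknown. RNA values were deposited as FPKM, made by the authors with TopHat2 and Cufflinks. Peak files were deposited by the authors as HOMER findPeaks lists with a normalized tag count, which is a signal per peak, and a findPeaks score. The submitters' processing notes name Trim Galore 0.3.3, BSMAP 2.74, Bowtie2 2.2.4, cutadapt 1.15 and mm9. Peaks were called per library, without pooling.

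From these files, peaks were intersected (at least 1 bp) in Python 3.11.15 with pandas 2.3.3 and numpy 2.4.6. A region's methylation is the mean over the tiles centred in it and valued in all 3 WGBS libraries. Sequences came from the mm9 (NCBIM37) genome and gene models from its GENCODE M1 annotation. RNA was tested with limma 3.58.1 in R 4.3.3 on log2(FPKM + 1), for genes that averaged 1 FPKM or more in some condition, with trend and Benjamini-Hochberg adjustment, in 1 fit of all assigned libraries. Fold changes of low genes are understated on this scale. Shares per library or mouse were compared with exact permutation tests, enumerated in Python with numpy. Shares of regions have 95% Wilson intervals from scipy 1.17.1, which cover counting error only. The study's text calls the pairs of ATAC-Seq and HNF6 libraries independent experiments, and neither it nor the labels say that they came from separate animals, so their p-values measure the spread between libraries, which may be technical. Scripts were tested on simulated data.

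Members and lists were chosen with earlier results of these data known. RNA columns were assigned to groups by the genotype and the injection day or age in their names. RRBS columns of WT, control and DKO hepatocytes were matched to RNA columns by animal number, and their groups rest on that number alone. Insulin receptor, fat and neutrophil columns were assigned by their names. The 52 per-sample columns (46 RRBS and 6 FPKM) that matched no label were not used. Columns carry no replicate number for RNA. Named regions are autosomal, outside chromosome 18, with at least 3 tiles: the 5 largest falls, the 5 highest DKO H3K27ac scores, the 5 highest WT scores open in WT only, the 3 highest open in all 4 libraries, the 3 highest 5hmC scores, the 3 largest rises and the 3 regions nearest each side of the overlap limit. Named genes are the 5 highest and the 5 lowest that passed the test among genes with a member that fell and no active region. Only 4 were higher, so the 10 genes that passed are covered, and 1 of them is not reported here, nor are a few named regions. Median centring of RNA, the size window of 600 to 2000 bp, the HNF6 block and the crossed pairings were added after the data were seen.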

Additional observations from a re-analysis of the deposited data

How the results depend on the processing

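The peak limits moved the number of members, which was 15888 with the top 50% of H3K4me1 peaks, 23446 for regions of 600 to 2000 bp, 50064 with the top 50% of H3K27ac peaks and 51722 where H3K27ac may cover under 50% of a region. Members that fell numbered 4507 at a limit of 25 points, 587 at 50 points and 926 with at least 3 tiles. The median fall was 5.86 points where the mean was 8.95. The 5hmC share was 10.1% with the top 50% of 5hmC peaks and 22.4% within 500 bp of the centre. The DKO H3K27ac share was 18.9% with as many DKO as WT peaks, 9.23% with the top 50% of DKO peaks and 18.3% for members with no WT peak within 1 kb, and the DKO H3K4me1 share 36.9% with the top 50% of DKO peaks. The HNF6 difference turned to -0.108 points with equal numbers of peaks. The cause of these shifts, beyond the smaller or larger number of peaks or regions counted, was not tested.

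Leaving out 1 library at a time moved the ATAC-Seq difference from 1.95 to 7.74 points, the HNF6 difference from 1.27 to 8.17, the RRBS difference from 3.25 to 3.37 and the RNA calls from 447 to 1035. With the replicate number as a block the ATAC-Seq difference was 4.84 points (exact p = 0.5, pairs 4.99 and 4.70) and the HNF6 difference 4.72 (exact p = 0.5, pairs 2.36 and 7.08). Same-numbered libraries did not deviate together (correlations -0.182 and -0.151 over members). Crossed pairing, under which the mean cannot change, gave pairs of 10.5 and -0.795 (exact p = 1) for ATAC-Seq and 9.26 and 0.178 (exact p = 0.5) for HNF6. For RNA no paired analysis was possible because the columns carry no replicate number. Counting all settings tried for the main results, those above included, 34 values kept their direction and their side of the threshold, or for values with no test stayed within their interval or 1.5 times, although some moved in size, such as the ATAC-Seq difference to 1.45 points with equal numbers of peaks. Of single genes and regions, 77 kept their call or direction and 21 kept the direction without passing. WGBS and histone marks had 1 library a group, so depth and replication limit every difference drawn from them.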
